A study of Sus scrofa with 23 samples.

Results

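PEG10, PLAGL1, PEG3 and MEG3 are 4 genes known to be imprinted in mammals, and they were followed through development from before birth to the end of growth in pig tissue. The members described here are every probe set of a porcine Affymetrix expression array whose only gene symbol in the platform annotation is one of these 4 names. The rule found 10 of the 23999 probe sets tested, for 4 of the 6765 genes so named, and no probe set that lists a member together with another gene. The arrays, 1 for each of 23 offspring of German Landrace gilts, fall into 4 stages named in dpc and dpn, read here as days after conception and after birth. There are 5 samples of 94 dpc, and 6 samples for each of 1, 28 and 188 dpn. All 23 animals, those of the youngest stage included, came from gilts on a gestational low protein diet, so only ages can be compared, not diets. Each stage drew on the litters of 3 gilts without a label for the dam, so some animals shared one, and p-values that treat all animals as independent may be too small.

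Genomic imprinting is the expression of a gene from only the copy inherited from one parent. PEG10, PLAGL1 and PEG3 are expressed from the paternal copy and MEG3 from the maternal copy, as established mainly in mouse and human. The arrays do not tell the parental copies apart, so they report the summed transcript of both. PEG10 derives from a retrotransposon and is needed for the placenta in mouse. PLAGL1 (also called ZAC1) encodes a zinc finger transcription factor that restrains cell division and that regulates other imprinted genes in mouse. PEG3 encodes a zinc finger protein that affects fetal growth and maternal behaviour in mouse. MEG3 is a long noncoding RNA of the domain that also holds DLK1 and RTL1. In sheep, the callipyge mutation that enlarges the hindquarter muscles lies in this domain. In mouse, many imprinted genes that promote growth are known to decline together in several organs after birth.

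The samples were labelled liver, whereas the series title names muscle, and the measured transcripts were rich in muscle genes. Of 12 skeletal muscle markers 10 were measured, and all 10 were higher at 188 dpn than at 94 dpc as deposited and with each array centred on its median, by 0.69 to 3.88 on the log2 scale as deposited. With quantile normalization 5 of the 10 were called higher, and the change of CKM was 0.28 (limma adjusted p = 0.12) in place of 1.01. Creatine kinase CKM averaged 86742 at 188 dpn and 42903 at 94 dpc, while ALB, which encodes the albumin that hepatocytes secrete, averaged 3640 at 188 dpn and 385 at 94 dpc. These are signals, the deposited intensity per probe set in arbitrary units on a linear scale, and a probe set's signal cannot be set against another's as an amount. The tissue is therefore not named further here. The GAPDH control probe sets gave a 5′ to 3′ signal ratio of 0.0868 to 0.148 in 1 dpn replicates 2, 4 and 5, against 1.09 to 1.29 in the other 20 samples. A low ratio is a usual sign of shortened RNA, and the fits, ratio tests and step shares with 1 dpn, of the members and of the listed genes, were recomputed without these 3 samples. The correlations over the 23 samples and the counts over successive steps were not. The ratio of the actin controls was 1.29 to 1.61 at 28 and 188 dpn, against 0.817 to 1.21 at 94 dpc and 1 dpn. In 1 dpn replicates 2, 4 and 5 it was 1.01, 0.817 and 0.985, overlapping the 0.999 to 1.21 of the other 1 dpn samples. The actin ratio thus did not set these 3 samples apart as the GAPDH ratio did, and whether their RNA was shortened was not tested. The ratio of the added Dap control RNA was 0.264 to 0.359 at 188 dpn, against 0.0511 to 0.0977 at 28 dpn. At 94 dpc it was 0.37 to 0.409 in replicates 1 to 3 and 0.0622 to 0.0916 in replicates 4 and 5. At 1 dpn it was 0.0657 to 0.0717 in the 3 samples of low GAPDH ratio and 0.174 to 0.361 in the others.

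The probe sets are lettered within each gene from the highest to the lowest mean signal. PEG10 had the probe sets A (Ssc.13476.1.A1_at), B (Ssc.24007.1.S1_at) and C (Ssc.24007.2.S1_at). PLAGL1 had A (Ssc.9617.1.A1_at), B (Ssc.26773.1.A1_at) and C (Ssc.24770.1.S1_at). PEG3 had A (Ssc.22623.2.S1_at) and B (Ssc.22623.1.S1_at), and MEG3 had A (Ssc.5159.2.S1_at) and B (Ssc.5159.3.A1_a_at). In mean log2 signal 6 of the 10 exceeded 7.15, the median over the whole array, namely PEG10 A, PLAGL1 A and B, PEG3 A and both of MEG3. The other 4 were dim, and whether they measured any transcript was not tested, since detection calls were not analysed here.

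Most of the brighter probe sets were highest before birth and lowest at 188 dpn. Changes are differences of mean log2(signal + 16) between 2 stages, later minus earlier, tested with limma and called at a Benjamini-Hochberg adjusted p under 0.05 over all probe sets. Between 188 dpn and 94 dpc 7 of the 10 were lower at 188 dpn and 0 were higher, where 23.4% of all probe sets were lower and 13.3% higher. The median change of the 10 was -3.15, against -0.08 over all probe sets. The 7 were PEG10 A, PLAGL1 A and B, PEG3 A and B, and MEG3 A and B. In 6 of these, all but PEG3 B, every 188 dpn sample lay below every 94 dpc sample, as in 18.5% of all probe sets. The 7 calls held under both other scalings of the arrays, which moved the median over all probe sets in that comparison to 0.08 (quantile normalization) and 0.22 (each array centred on its median), and the share of higher among all calls to 48.8% and 56.9%, against 36.3% as deposited. Signal per array depends on all transcripts measured, and fewer cells of a type and less RNA per cell cannot be told apart in these tissue samples.

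Members were called lower in each of the 3 intervals between stages. At 1 dpn against 94 dpc 6 of the 10 were lower and 0 higher, beside 17.9% lower and 8.08% higher among all probe sets. Of all calls 31.2% were higher there, or 47.3% and 59.4% under the other scalings, in the order given above. The median change of the 10 was -1.22, against -0.11 over all. For 28 dpn against 1 dpn 4 were lower and 1, PEG10 C, was higher, beside 7.03% lower and 10.1% higher among all. For 188 dpn against 28 dpn 5 were lower and 0 higher, beside 9.15% lower and 4.66% higher among all. Higher calls were 33.7% of all calls there, or 42.5% and 46.6% under the other scalings. For 28 dpn against 94 dpc 6 were lower and 0 higher, beside 14.7% lower and 8.87% higher among all, and higher calls were 37.6% of all calls, or 50.2% and 59.1% under the other scalings. For 188 dpn against 1 dpn 7 were lower and 1 higher, beside 15.6% lower and 13.6% higher among all. Ranges of samples that did not overlap, with the later stage lower, were found for 3 of the 10 at 1 dpn against 94 dpc (9.66% of all probe sets), 4 at 28 dpn against 1 dpn (2.7%) and 5 at 188 dpn against 28 dpn (6.41%). Over the longer spans they were found for 6 at 28 dpn against 94 dpc (12.8%) and 4 at 188 dpn against 1 dpn (6.51%). PEG10 C alone had the later stage higher without overlap, at 28 dpn against 1 dpn (4.14%).

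**Figure D1:**
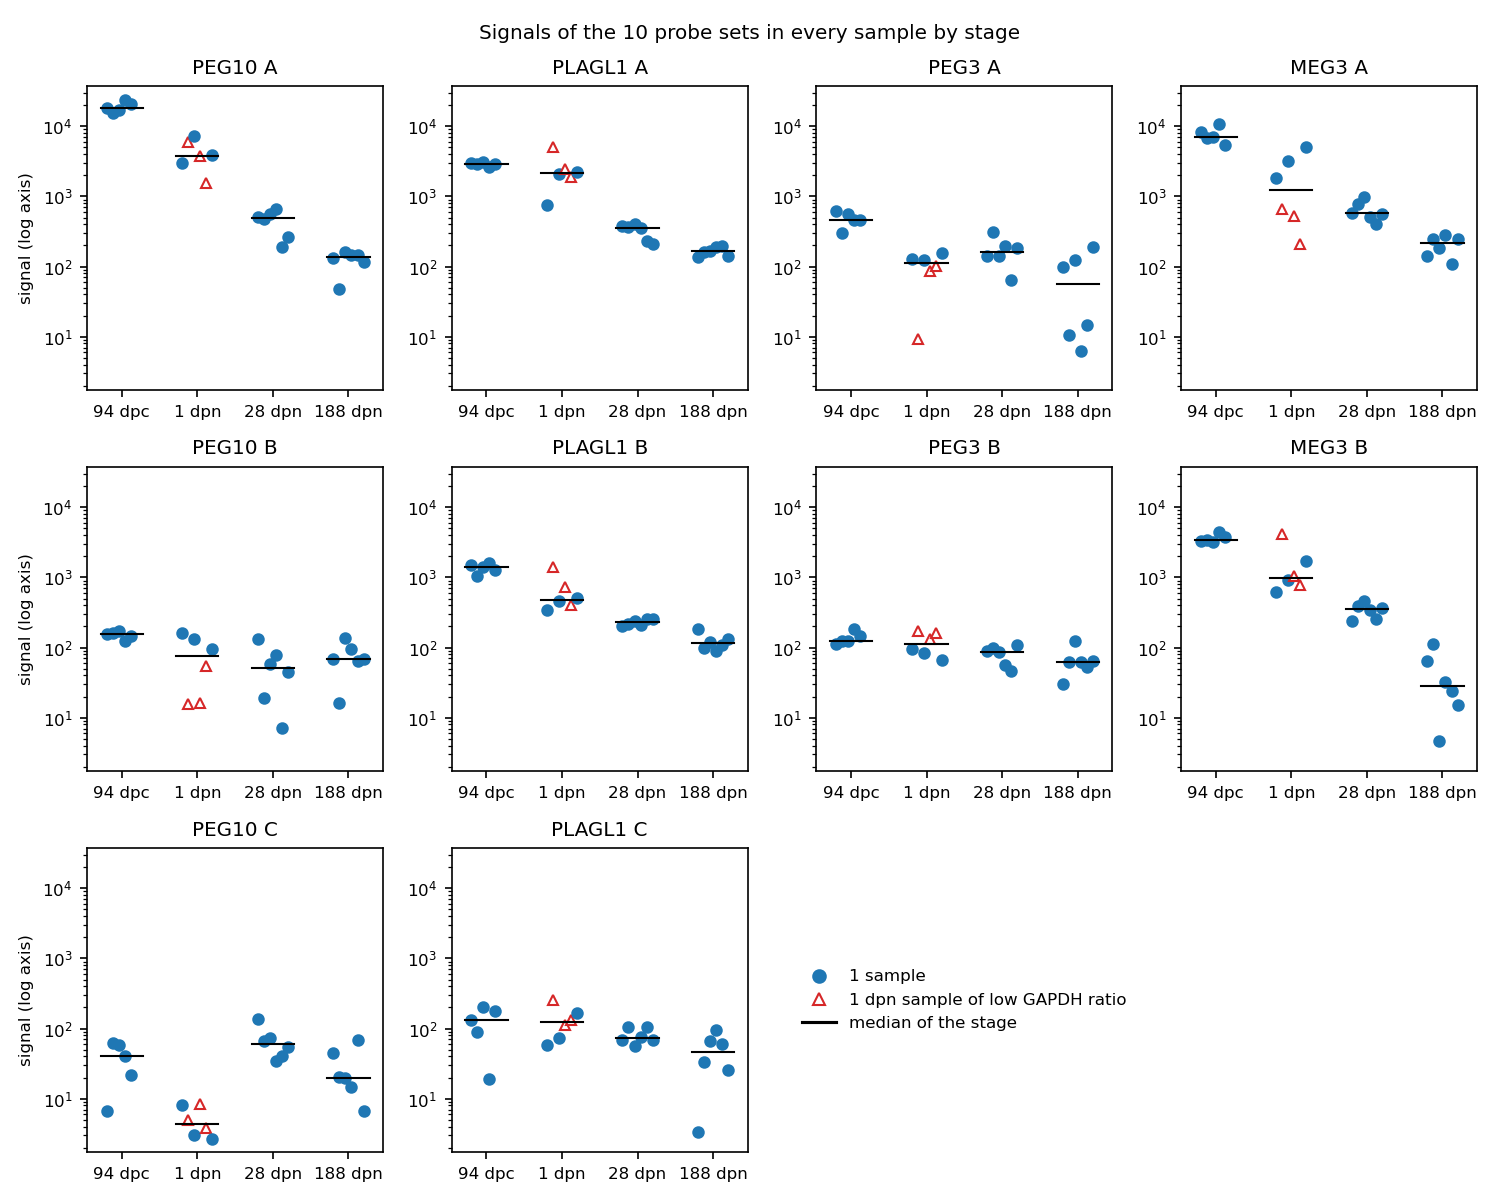
Signal of each of the 10 probe sets in every sample, on a log axis, by stage. Points are samples, bars are stage medians and open triangles are the 3 samples of 1 dpn with a low GAPDH ratio. PEG10 A falls at each stage with no overlap between stages, MEG3 A splits into high and low samples at 1 dpn, and PEG10 C is lowest at 1 dpn.

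PEG10 A showed the largest fall of the 10 probe sets. Its signals at 94 dpc were 15596, 16968, 18083, 20615 and 23793. At 1 dpn the lowest, median and highest signals were 1560, 3812 and 7221. At 28 dpn they were 191.6, 490.8 and 671.8, and at 188 dpn 47.3, 138.4 and 162.9. No sample of a later stage reached the lowest sample of an earlier one. The change was -2.31 ± 0.35 at 1 dpn against 94 dpc (SE, limma adjusted p = 3.8e-05, n = 6 and 5), -3.16 ± 0.34 at 28 dpn against 1 dpn (limma adjusted p = 1e-06, n = 6 each) and -1.66 ± 0.34 at 188 dpn against 28 dpn (limma adjusted p = 0.0015, n = 6 each). Over the whole span the change was -7.13 ± 0.35 at 188 dpn against 94 dpc (limma adjusted p = 1.3e-12), a 140.0-fold fall on this scale. It was the 4th largest fall of the 23999 probe sets in that comparison. It was lower in all 6 comparisons of stages, and these 6 calls held under each alternative setting and without each sample in turn.

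The dimmer PEG10 probe sets did not follow probe set A. PEG10 B averaged 152.2, 79.1, 56.6 and 75.6 from 94 dpc to 188 dpn. Only its change at 28 dpn against 94 dpc passed the test (-1.46, limma adjusted p = 0.029), a call lost under quantile normalization (adjusted p = 0.062) and without any one of 94 dpc replicates 1, 2, 3 or 5 or 28 dpn replicates 2 or 5. Its adjusted p lay between 0.0066 and 0.25 over all alternatives, which were other scalings, added constants, filters and fits, the control ratios as covariates, and samples left out. PEG10 C averaged 37.9, 5.20, 67.5 and 29.1 over the same 4 stages. Its 1 dpn signals, 2.70 to 8.50, lay below all 28 dpn signals, 35.0 to 137.2. It rose by 1.89 at 28 dpn against 1 dpn (limma adjusted p = 0.00025), a value that moved to 3.41 and 0.89 with 1 and 64 added to the signal in place of 16. It fell by 1.22 at 1 dpn against 94 dpc (limma adjusted p = 0.0095), or by 2.40 and 0.53 with 1 and 64 added. It rose by 0.95 at 188 dpn against 1 dpn (limma adjusted p = 0.028), a call lost without the 3 samples of low GAPDH ratio (adjusted p = 0.098) and without 188 dpn replicate 1 (adjusted p = 0.069) or 5 (adjusted p = 0.083). Over all alternatives the adjusted p of that change lay between 0.0054 and 0.14. With the actin ratio as a covariate the change of PEG10 C at 28 dpn against 1 dpn was 2.12 (adjusted p = 0.069). Over the 23 samples, which share their stages, log2 signals of PEG10 A correlated at r = 0.46 with B and -0.22 with C, so the 3 probe sets do not give 1 course for the gene.

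**Figure D2:**
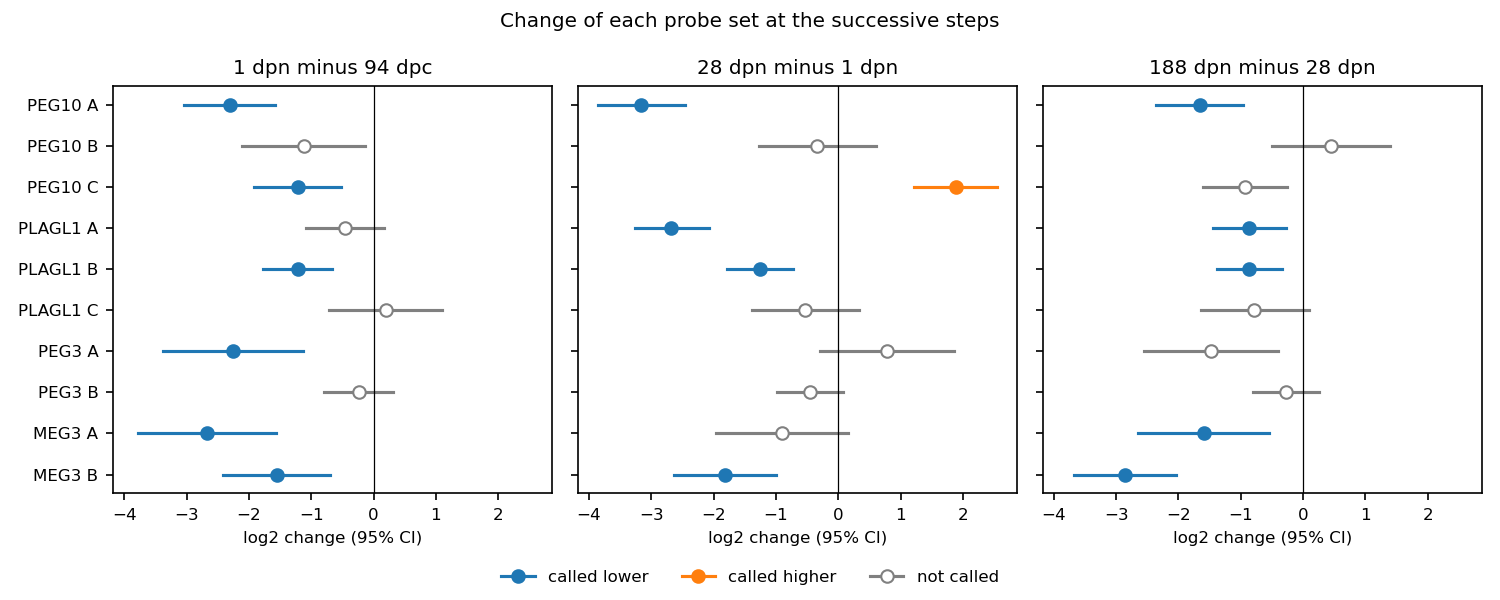
Change in mean log2(signal + 16) for the 10 probe sets at each interval, later stage minus earlier stage, with 95% confidence intervals from limma and a line at 0; filled points passed the adjusted p of 0.05. PEG10 A, PLAGL1 B and MEG3 B lie left of 0 at all 3 intervals, and PEG10 C lies right of 0 at 28 dpn against 1 dpn.

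PLAGL1 fell mainly between 1 and 28 dpn by its brightest probe set. PLAGL1 A had signals of 2618, 2863, 2874, 3004 and 3087 at 94 dpc. Its lowest, median and highest signals were 747.5, 2165 and 5129 at 1 dpn, 209.8, 355.8 and 403.3 at 28 dpn, and 138.5, 164.7 and 195.0 at 188 dpn. Of the 1 dpn samples only replicate 2, at 5129, lay above the 94 dpc samples, and all others lay below them. Every 28 dpn sample lay below every 1 dpn sample. The change was -0.46 ± 0.30 at 1 dpn against 94 dpc (limma adjusted p = 0.28), which without the low-GAPDH samples passed the test at -0.92 (adjusted p = 0.025), as it did without 1 dpn replicate 2 alone at -0.72 (adjusted p = 0.04). Over all alternatives its adjusted p lay between 0.024 and 0.69. The change at 28 dpn against 1 dpn was -2.68 ± 0.29 (limma adjusted p = 1e-06). The last step, -0.86 ± 0.29 at 188 dpn against 28 dpn (limma adjusted p = 0.047), had no overlap between the stages. That call was lost without any single one of the 12 samples other than 28 dpn replicates 5 and 6, with adjusted p between 0.055 and 0.1. It was also lost under both other scalings, with 64 added and with the Dap ratio as a covariate, and the adjusted p lay between 0.0064 and 0.36 over all alternatives. Over the whole span PLAGL1 A fell by 4.00 ± 0.30 at 188 dpn against 94 dpc (limma adjusted p = 3.9e-10) and the change was -3.41 with the actin ratio as a covariate (adjusted p = 6.2e-06). With that covariate its change at 28 dpn against 1 dpn was -2.01 (adjusted p = 0.035).

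PLAGL1 B fell at every step. Its signals were 1033, 1271, 1395, 1513 and 1621 at 94 dpc. The lowest, median and highest signals were 342.0, 483.2 and 1417 at 1 dpn, 202.8, 227.6 and 258.3 at 28 dpn, and 89.5, 114.2 and 186.6 at 188 dpn. Replicate 2, of low GAPDH ratio, was the highest 1 dpn sample in both PLAGL1 A and B and the only one that reached the 94 dpc range of B. The changes at the 3 steps were -1.22 ± 0.26 (limma adjusted p = 0.0013), -1.25 ± 0.25 (adjusted p = 0.0012) and -0.86 ± 0.25 (adjusted p = 0.023). The last call was lost without 188 dpn replicate 2 (adjusted p = 0.05) or 4 (adjusted p = 0.055), with each array centred on its median (adjusted p = 0.058) and with the Dap ratio as a covariate (adjusted p = 0.48). The middle call was lost with the GAPDH ratio (adjusted p = 0.062) or the actin ratio (adjusted p = 0.37) as a covariate. Over all alternatives the adjusted p lay between 0.0028 and 0.48 for the last step and between 0.00024 and 0.37 for the middle one. The change of PLAGL1 B at 188 dpn against 94 dpc was -3.34 ± 0.26 (limma adjusted p = 9.1e-10).

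The steps at which PLAGL1 A and B fell are given side by side, without a test of the difference. Of the total fall in log2 signal, PLAGL1 A had 11.6% at 1 dpn, 66.9% at 28 dpn and 21.5% at 188 dpn, and PLAGL1 B had 36.6%, 37.6% and 25.8%. Without the 3 samples of low GAPDH ratio the first 2 steps held 22.9% and 55.6% for PLAGL1 A, and 48.3% and 25.8% for PLAGL1 B. Their log2 signals correlated at r = 0.93 over the 23 samples and at 0.57 after each stage's mean was taken away. The dim PLAGL1 C averaged 123.9, 133.0, 79.8 and 47.2 from 94 dpc to 188 dpn. It passed the test only at 188 dpn against 1 dpn (-1.31, limma adjusted p = 0.02), and not without the 3 samples of low GAPDH ratio (adjusted p = 0.21), 1 dpn replicate 2 (adjusted p = 0.056) or 188 dpn replicate 1 (adjusted p = 0.062), with 0.0098 to 0.39 over all alternatives.

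MEG3, the maternally expressed RNA, was also highest before birth. MEG3 A had signals of 5418, 6699, 7033, 8333 and 10890 at 94 dpc. The lowest, median and highest signals were 212.7, 1243 and 5074 at 1 dpn, 410.4, 573.2 and 976.4 at 28 dpn, and 107.7, 214.3 and 284.4 at 188 dpn. Every stage after birth lay below 94 dpc, and 188 dpn lay below 28 dpn. It fell by 5.17 ± 0.54 at 188 dpn against 94 dpc (limma adjusted p = 5.5e-08) and the change was -6.25 with the actin ratio as a covariate (adjusted p = 4.7e-06). At 188 dpn against 28 dpn it fell by 1.59 ± 0.51 (limma adjusted p = 0.039). That call was lost under both other scalings (adjusted p = 0.055 and 0.058), with trended and robust variances (adjusted p = 0.051), with the actin ratio as a covariate (adjusted p = 0.083) and without any one of 28 dpn replicates 1, 2, 3, 4 or 6 or 188 dpn replicates 1, 3 or 5, with adjusted p between 0.053 and 0.086. The adjusted p lay between 0.0012 and 0.086 over all alternatives.

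The 1 dpn values of MEG3 A split with the GAPDH ratio. The 3 samples of low ratio had 212.7 to 657.9, against 1828 to 5074 in the other 3 samples of that age. MEG3 B, which reads the same gene, did not split in this way, with 774.1 to 4094 in the 3 samples of low ratio and 625.6 to 1686 in the others. The change of MEG3 A at 1 dpn against 94 dpc was -2.68 ± 0.54 (limma adjusted p = 0.00063), and -1.26 (adjusted p = 0.011) without the 3 samples. At 28 dpn against 1 dpn it was -0.90 ± 0.51 (limma adjusted p = 0.26), and -2.32 (adjusted p = 0.00016) without the 3 samples or -1.37 (adjusted p = 0.035) without replicate 5 alone, with adjusted p between 0.00016 and 0.55 over all alternatives. At 188 dpn against 1 dpn it was -2.49 (limma adjusted p = 0.00061), and -3.91 (adjusted p = 8.5e-08) without the 3. Which step of MEG3 A was larger thus turned on these samples, and the part of RNA quality in it was not tested.

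**Figure D3:**
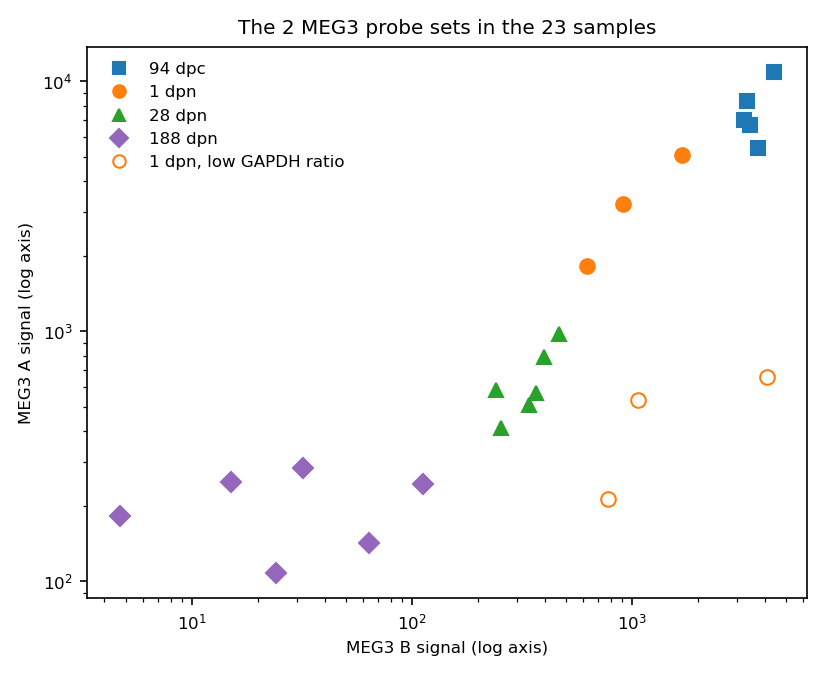
Signal of MEG3 A (vertical) against MEG3 B (horizontal) in the 23 samples, both on log axes, coloured by stage, with the 3 samples of 1 dpn with a low GAPDH ratio drawn open. These 3 lie below the other 1 dpn samples, at 212.7 to 657.9 of MEG3 A, and the 188 dpn samples lie farthest left.

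MEG3 B fell at every step and most at the last. Its signals were 3216, 3336, 3446, 3733 and 4420 at 94 dpc. The lowest, median and highest signals were 625.6, 983.1 and 4094 at 1 dpn, 240.9, 351.9 and 464.0 at 28 dpn, and 4.70, 27.9 and 111.8 at 188 dpn. Replicate 2 was the only 1 dpn sample within the 94 dpc range, and from 1 dpn on the stages did not overlap. The changes at the 3 steps were -1.55 ± 0.41 (limma adjusted p = 0.007), -1.82 ± 0.40 (adjusted p = 0.0024) and -2.86 ± 0.40 (adjusted p = 3.4e-05). The middle call was lost with the GAPDH ratio (adjusted p = 0.068) or the actin ratio (adjusted p = 0.3) as a covariate, and its adjusted p lay between 0.00019 and 0.3 over all alternatives. The change of MEG3 B at 188 dpn against 94 dpc was -6.23 ± 0.41 (limma adjusted p = 6.2e-11), the 8th largest fall of all probe sets. The 188 dpn signals are near the 16 that was added, and this value was -6.98 with 1 added and -5.19 with 64. Log2 signals of MEG3 A and B correlated at r = 0.84 over the 23 samples and at 0.08 after each stage's mean was taken away.

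PEG3 A was lower at 1 dpn and at 188 dpn than at 94 dpc, and its changes at the later steps did not pass the test. It had signals of 299.5, 466.0, 466.4, 560.7 and 612.3 at 94 dpc. The lowest, median and highest signals were 9.28, 112.9 and 158.2 at 1 dpn, 63.3, 163.1 and 311.6 at 28 dpn, and 6.32, 56.3 and 188.5 at 188 dpn. All 1 dpn and 188 dpn samples lay below all 94 dpc samples, and the 3 later stages overlapped one another. The change was -2.26 ± 0.55 at 1 dpn against 94 dpc (limma adjusted p = 0.0033), and without the 3 low-GAPDH samples -1.66 (adjusted p = 0.051). The signals of these 3, 9.28 to 100.7, lay below the 125.2 to 158.2 of the other 1 dpn samples. At 28 dpn against 1 dpn it was 0.78 (limma adjusted p = 0.35) and at 188 dpn against 28 dpn -1.47 (adjusted p = 0.062). Over all alternatives the adjusted p lay between 0.00013 and 0.083 for 1 dpn against 94 dpc and between 0.019 and 0.16 for 188 dpn against 28 dpn. Over the whole span, 188 dpn against 94 dpc, PEG3 A fell by 2.95 ± 0.55 (limma adjusted p = 0.00013) and the change was -3.61 and -2.14 with 1 and 64 added to the signal.

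PEG3 B, which was dim, averaged 137.8, 118.4, 80.6 and 65.9 from 94 dpc to 188 dpn. It was lower at 188 dpn than at 94 dpc (-0.97, limma adjusted p = 0.0053) and than at 1 dpn (-0.73, adjusted p = 0.032). At 1 dpn its 3 samples of low GAPDH ratio were the higher ones, 134.3 to 173.6 against 67.3 to 94.0, the opposite of PEG3 A. Without these 3 samples the change at 188 dpn against 1 dpn was -0.32 (adjusted p = 0.47). That call was also lost without any one of 1 dpn replicates 2, 4 or 5 or 188 dpn replicates 1 or 5, with adjusted p between 0.059 and 0.091, and 0.0072 to 0.69 over all alternatives. With the actin ratio as a covariate its change at 188 dpn against 94 dpc was -0.47 (adjusted p = 0.43, with 0.001 to 0.43 over all alternatives).

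The total falls of PEG10 and MEG3 can be divided over the steps likewise, as a description. PEG10 A had 32.4% of its total log2 fall at 1 dpn, 44.3% at 28 dpn and 23.3% at 188 dpn. MEG3 A had 51.8%, 17.4% and 30.9% at these steps, and MEG3 B had 24.9%, 29.1% and 45.9%. Without the 3 samples of low GAPDH ratio the first 2 steps held 24.3% and 44.8% for MEG3 A, so that their order turned, 29.7% and 24.4% for MEG3 B, whose order turned as well, and 29.5% and 47.1% for PEG10 A. PEG10 A, PLAGL1 B and MEG3 B were called lower at each of the 3 successive steps, as were 55 probe sets in all, 0.229% of those tested. By ranges that did not overlap at any step, PEG10 A was 1 of 13 such probe sets, 0.0542% of those tested.

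The log2 ratio of 2 genes within an array compares their changes directly, and was tested for the brightest probe set of each gene with 24 two-sided exact permutation tests over samples, adjusted by Benjamini-Hochberg over the 24. These tests were chosen after the values were seen. The smallest p that they allow is 0.0022 for 6 against 6 samples and 0.0043 for 6 against 5. Over the whole span PEG10 A fell further than PLAGL1 A and MEG3 A. The other probe sets were not tested in this way, among them MEG3 B, with a change of -6.23, and PEG10 B and C, with -1.01 and -0.26. The ratio of PEG10 A to PLAGL1 A changed by -3.13 at 188 dpn against 94 dpc (exact permutation p = 0.0043, adjusted 0.015) and that of PEG10 A to MEG3 A by -1.96 (exact permutation p = 0.0043, adjusted 0.015). MEG3 A also fell further than PLAGL1 A, whose ratio to it rose by 1.17 (exact permutation p = 0.0043, adjusted 0.015). At 188 dpn PEG10 A, PLAGL1 A and MEG3 A averaged 125.5, 166.6 and 202.0, where the median signal of an array was 121.3 to 130.4. Whether background signal limited these falls was not tested. The total fall of PEG3 A is not set against the others. With 16 added it could show a fall of at most 4.92 from its 94 dpc level, less than the falls of PEG10 A and MEG3 A, and 3 of its 6 signals at 188 dpn were under 16.

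Within the single steps, the ratio of PEG10 A to PLAGL1 A fell at 1 dpn against 94 dpc (-1.84, exact permutation p = 0.0043, adjusted 0.015) and at 188 dpn against 28 dpn (-0.80, exact permutation p = 0.0065, adjusted 0.017). At 28 dpn against 1 dpn it changed by -0.48 (exact permutation p = 0.24). The first of these was -1.19 when the 3 low-GAPDH samples were left out (adjusted exact permutation p = 0.078). With 3 samples of 1 dpn left, the smallest p that the test allows is larger. A call lost in this way, here or below, cannot be told apart from the effect of smaller groups. The ratio of PEG10 A to MEG3 A fell by 2.26 at 28 dpn against 1 dpn (exact permutation p = 0.0065, adjusted 0.017), and by 1.04 without the 3 samples (adjusted exact permutation p = 0.13). The ratio of PLAGL1 A to PEG3 A rose by 1.79 at 1 dpn against 94 dpc (exact permutation p = 0.022, adjusted 0.043), and by 0.74 without the 3 (adjusted exact permutation p = 0.29). At 28 dpn against 1 dpn it changed by -3.45 (exact permutation p = 0.0022, adjusted 0.015), or -2.40 without the 3 (adjusted exact permutation p = 0.057). The ratio of PEG10 A to PEG3 A changed by -3.94 there (exact permutation p = 0.0022, adjusted 0.015), or -3.54 without the 3 (adjusted exact permutation p = 0.057). PEG3 A had a mean log2 level of 6.66 at 1 dpn, and the constant added to the signal sets a floor below it. Its room to fall was less than the change of PEG10 A at that step, -3.16, and close to that of PLAGL1 A, -2.68. With all samples, the ratio of PEG10 A to PEG3 A thus had to fall whatever PEG3 A did. Neither ratio to PEG3 A can therefore rank the falls at that step, where PEG3 A itself changed by 0.78 without passing the test. The ratio of PLAGL1 A to MEG3 A rose by 0.73 at 188 dpn against 28 dpn (exact permutation p = 0.015, adjusted 0.036).

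Genes with the most similar course were sought among 4962 named genes above the median signal, by Pearson's r of log2 signal over the 23 samples, which all share the order of the stages. For PEG10 A these were LOC396711 (r = 0.976), FHL2 (0.961), PLAGL1 (0.95), FGFR1 (0.948) and MESDC2 (0.947). LOC396711, which the annotation leaves without a name, averaged 23044, 6892, 823.7 and 133.1 from 94 dpc to 188 dpn. FHL2 encodes a LIM domain protein of striated muscle and averaged 2566, 894.4, 436.1 and 257.2 over these stages. FGFR1 is a receptor for fibroblast growth factors.

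PLAGL1 A was most like PIGT (0.953), PEG10 (0.95), RTL6 (0.949), RPL3 (0.947) and SEPT2 (0.944). RTL6 belongs, with PEG10, to the genes derived from retrotransposons, and averaged 1022, 704.4, 361.5 and 251.3 over the stages. PLAGL1 B was most like SEPT2 (0.968), RTL6 (0.953), LOC396711 (0.952), PABPC1 (0.951) and PEG10 (0.95). MEG3 A was most like EMP3 (0.957), SPATS2L (0.952), RAB34 (0.934), CLTA (0.926) and SNX22 (0.926). MEG3 B was most like CCDC8 (0.963), LAMC1, a laminin chain (0.96), LOC396711 (0.954), DNMT1, the enzyme that maintains DNA methylation (0.95), and GLIPR2 (0.948). PEG3 A had weaker matches, led by DPP4 (0.876), BPHL (0.831), TSPAN9 (0.826), EXT1 (0.824) and CMTM7 (0.817).

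Other genes imprinted in mouse or human, not all of them known to be imprinted in pig, were taken from lists of paternally and maternally expressed genes, each gene by its brightest probe set. The direction of each call given for these genes was the same under the other 2 scalings. Apart from the members, 8 paternally expressed genes were measured. Of these 2 were lower at 1 dpn than at 94 dpc, 2 at 28 dpn than at 1 dpn and 3 at 188 dpn than at 28 dpn, with 0 higher at any of these steps. In percent these are 25.0, 25.0 and 37.5 of the 8, beside the 17.9%, 7.03% and 9.15% lower among all probe sets. Without the 3 samples of low GAPDH ratio the middle count was 1, since NDN was no longer called. In the comparison of 188 dpn with 94 dpc 4 were lower, 0 higher and 4 did not pass the test, beside 23.4% lower among all. Their median change was -0.68, against -0.08 over all probe sets and -3.15 for the members.

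IGF2, the fetal insulin-like growth factor, fell by 4.59 ± 0.37 at 188 dpn against 94 dpc (limma adjusted p = 1.1e-09), with mean signals of 402.7 at 188 dpn and 10243 at 94 dpc. By this brightest of its 13 probe sets the change was -2.62 ± 0.35 at 188 dpn against 28 dpn (limma adjusted p = 2.5e-05) and -0.87 at 1 dpn against 94 dpc (adjusted p = 0.088), or -1.30 with quantile normalization (adjusted p = 0.013). Of all 13 probe sets 5 were lower and 0 higher at 1 dpn against 94 dpc, 2 lower and 2 higher at 28 dpn against 1 dpn, and 7 lower and 0 higher at 188 dpn against 28 dpn. The probe sets of IGF2 differed in their largest step, and at 188 dpn against 94 dpc 7 were lower and 0 higher. NDN, which encodes the growth suppressor necdin, fell at every step and by 2.28 ± 0.17 at 188 dpn against 94 dpc (limma adjusted p = 3.4e-10). It averaged 4934, 2944, 1814 and 1011 over the 4 stages. The call of NDN at the middle step (-0.66, limma adjusted p = 0.0061) was lost when the 3 low-GAPDH samples were left out (-0.43, adjusted p = 0.086). NNAT, or neuronatin, fell by 1.74 ± 0.36 (limma adjusted p = 0.00045) and SNRPN by 0.70 ± 0.20 (adjusted p = 0.0085) in the same comparison. The SNRPN call was lost with each array centred on its median (adjusted p = 0.12). NAP1L5 passed the test once as well, at 1 dpn against 94 dpc (-1.19, limma adjusted p = 0.011), a call lost with quantile normalization (adjusted p = 0.055).

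Of 12 maternally expressed genes measured apart from MEG3, 6 were lower, 2 higher and 4 not called at 188 dpn against 94 dpc, beside 23.4% lower and 13.3% higher among all probe sets. At 1 dpn against 94 dpc 2 were lower and 1 higher, 16.7% and 8.33% of the 12, near the 17.9% and 8.08% of all probe sets. At 28 dpn against 1 dpn 4 were lower and 1 higher, beside 7.03% and 10.1% of all, and 3 and 0 without the 3 samples of low GAPDH ratio. At 188 dpn against 28 dpn 2 were lower and 2 higher, beside 9.15% and 4.66% of all. GRB10, an adaptor that restrains insulin and growth factor signalling, rose by 2.91 ± 0.22 at 188 dpn against 94 dpc (limma adjusted p = 3.2e-10). Its signals of 7037 to 9696 at 188 dpn all lay above the 887.0 to 1680 at 94 dpc. Most of this rise was at 1 dpn against 94 dpc (2.13 ± 0.22, limma adjusted p = 2.2e-07). UBE3A, a ubiquitin ligase, was higher by 0.43 ± 0.17 (limma adjusted p = 0.049), a call lost with quantile normalization (adjusted p = 0.2).

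The falls in that list at 188 dpn against 94 dpc were led by CALCR, the calcitonin receptor (-3.25 ± 0.32, limma adjusted p = 3e-08), and PHLDA2, which restrains placental growth in mouse (-3.08 ± 0.46, adjusted p = 9.8e-06). OSBPL5 (-1.96 ± 0.35, limma adjusted p = 8.2e-05), ATP10A (-1.89 ± 0.47, adjusted p = 0.0023), SLC22A3 (-1.30 ± 0.29, adjusted p = 0.0011) and GNAS (-1.08 ± 0.29, adjusted p = 0.0053) were also lower. IGF2R, the receptor that clears IGF2, changed only at 28 dpn against 1 dpn (-0.77 ± 0.22, limma adjusted p = 0.017), and TFPI2 rose at that step (0.93 ± 0.28, adjusted p = 0.023). Neither passed the test when the 3 low-GAPDH samples were left out, with -0.47 for IGF2R (limma adjusted p = 0.25) and 1.00 for TFPI2 (adjusted p = 0.062). DLK1, H19, CDKN1C, MEST and SGCE had no probe set that names them alone, so their levels were not analysed here.

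**Figure D4:**
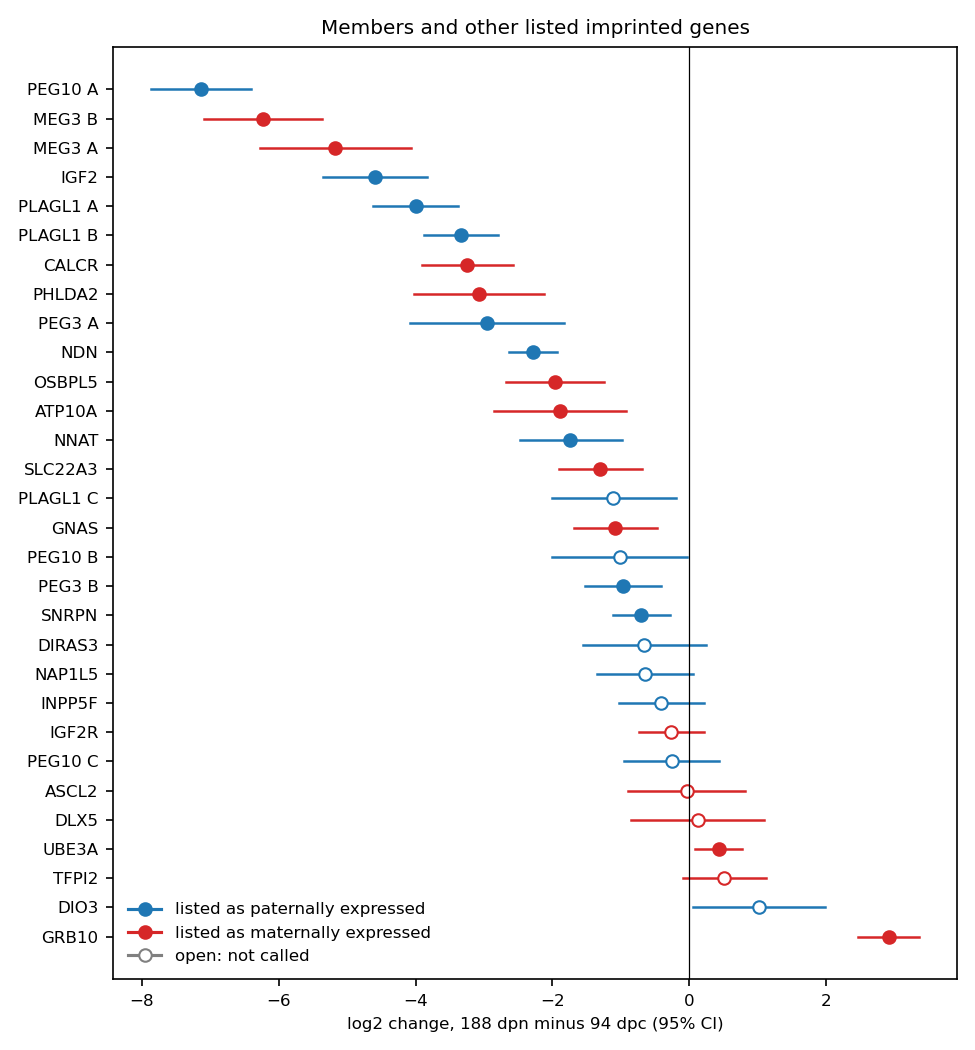
Change in mean log2(signal + 16) at 188 dpn against 94 dpc, with 95% confidence intervals from limma, for the members and for the other measured genes of the paternally and maternally expressed lists. PEG10 A and MEG3 B lie farthest left, most called genes lie left of 0, and GRB10 lies farthest right.

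Matrix genes that were named beside imprinted genes in a mouse gene network, without being imprinted themselves, were taken as a further list. Of 5 measured, 4 (DCN, FBN1, LUM and BGN) were lower at 1 dpn than at 94 dpc, beside 17.9% of all probe sets. At 28 dpn against 1 dpn 0 passed the test, and both counts were the same without the 3 samples of low GAPDH ratio. With each array centred on its median 3 were lower at 1 dpn against 94 dpc. At 188 dpn against 28 dpn 2 were lower, beside 9.15% of all probe sets. These were FBN1 (-0.84, limma adjusted p = 0.016) and LUM (-0.97, adjusted p = 0.018), and the median of the 5 was -0.80. The same 4 were lower at 188 dpn against 94 dpc, beside 23.4% of all probe sets. They were led by biglycan, BGN (-2.67 ± 0.30, limma adjusted p = 2e-07), and fibrillin, FBN1 (-2.07 ± 0.24, adjusted p = 3.5e-07).

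Markers of cell types and states moved over the same stages. Of all probe sets, 23.4% were lower and 13.3% higher at 188 dpn against 94 dpc. These shares were 17.9% and 8.08% at 1 dpn against 94 dpc, and 7.03% and 10.1% at 28 dpn against 1 dpn. Of 10 markers of myogenic progenitors and developing muscle 5 were measured, and all 5 were lower at 188 dpn than at 94 dpc, with summed signals of 656.0 to 1329 at 188 dpn and 9559 to 14731 at 94 dpc. At 1 dpn and 28 dpn the sums were 1031 to 2753 and 1404 to 2883, so that 4 of the 5 were lower at 1 dpn against 94 dpc and 2 higher with 1 lower at 28 dpn against 1 dpn. Without the 3 samples of low GAPDH ratio these were 4 lower and, at the later step, 0 in either direction. TNNT2, the embryonic and cardiac troponin T, had the largest change of the list, -5.32 ± 0.60 at 188 dpn against 94 dpc (limma adjusted p = 1.9e-07). Among 6 measured markers of matrix-forming cells 5 were lower in that comparison, with sums of 9904 to 15895 at 188 dpn and 40647 to 59001 at 94 dpc. The 6 include DCN, LUM and COL3A1, which also belong to the list of matrix genes above. Of 6 endothelial markers 4 were lower, with sums of 2559 to 3880 at 188 dpn and 8726 to 14733 at 94 dpc.

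The dividing cell markers CCNB1, TOP2A and UBE2C, 3 of 5 measured, had sums of 83.8 to 264.3 at 188 dpn and 1473 to 2153 at 94 dpc. All 3 were lower at 1 dpn than at 94 dpc (median change -3.43), as was PEG10 A. They were lower again at 188 dpn than at 28 dpn (median change -1.93), beside 9.15% of all probe sets, and PEG10 A was lower there too. All 3 were higher at 28 dpn than at 1 dpn, where PEG10 A was lower, also without the low-GAPDH samples. Their sums were 672.5 to 1023 at 28 dpn and 89.5 to 580.9 at 1 dpn. Of 10 hepatocyte markers measured 2 were higher, 2 lower and 6 not called at 188 dpn against 94 dpc, near the 13.3% higher and 23.4% lower among all probe sets. The fetal liver proteins AFP and AHSG were both lower, with sums of 157.1 to 1137 at 188 dpn and 2018 to 14548 at 94 dpc. The part of any of these cell populations in the falls of PEG10, PLAGL1, PEG3 and MEG3 was not tested.

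Genes listed next to the members in the RefSeq annotation of the pig (assembly Sscrofa11.1, used for order only) were taken by position, up to 5 on each side. Near PEG10, 3 of 10 were measured. COL1A2, a collagen chain, fell by 2.57 at 188 dpn against 94 dpc (limma adjusted p = 2.8e-06), CASD1 fell by 0.87 (adjusted p = 0.014) and PON3 rose by 1.26 (adjusted p = 0.046). Near PLAGL1, 5 were measured, of which FUCA2 (-2.58, limma adjusted p = 5.4e-07), STX11 (-1.51, adjusted p = 0.002) and PEX3 (-0.78, adjusted p = 0.0098) fell. SF3B5, which lies next to PLAGL1 in that order, changed by 0.40 (limma adjusted p = 0.32) and LTV1 by 0.08 (adjusted p = 0.78). Near PEG3 only LOC100522375 was measured (0.65, limma adjusted p = 0.06), and near MEG3, whose neighbours there include DLK1 and RTL1, none was.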

How the data were processed

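The authors deposited intensities, as linear signals of 24123 probe sets on each array. Per the submitters' processing notes GCOS 1.1.1 was used, with no role stated. How probes were summarised and background was corrected is not given in the sources used here, and detection calls were not analysed here. The 2% trimmed mean was 500.1 to 500.2 on every array, from which the values were taken as already scaled. Such scaling ties each signal to all others of its array. Per the labels' protocols, biotinylated cRNA was made from total RNA.

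Tests left out 124 Affymetrix controls. log2(signal + 16) was fitted with limma 3.58.1 (lmFit, eBayes) in R 4.3.3, with 1 mean per stage over all 23 arrays, tests two-sided and adjusted over 23999 probe sets. Exact tests used scipy 1.17.1, figures matplotlib 3.10.9. No arrays were identical. The annotation gave 1 symbol to 10099 probe sets, several to 198 and none to 13826. The number of arrays limits the precision. The fit was tested on simulated data.

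Named were all members, per comparison up to 4 called genes of each imprinted list in each direction with the largest change, IGF2, DLK1, H19, IGF2R, CDKN1C, GRB10, MEST, SGCE and NNAT where measured, and the 5 genes of most similar course for members above the median signal. Marker and neighbouring genes were named beside them. Some genes that the rule names are given only in the counts. The members, lists and tests were chosen with earlier results of these data known. Alternatives were quantile normalization, median centring, other pseudocounts, a filter on dim probe sets, a fit to the stages of a comparison alone, eBayes with a trend and robust variances, array weights, the control ratios as covariates, and leaving out samples. Those of the ratio tests, step shares and listed genes were chosen after seeing the data.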

Additional observations from a re-analysis of the deposited data

Results flagged for a closer look

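Of 40 groups of 5 or 6 samples examined, 1 for each probe set and stage, 2 held a sample far from the others, and chance gives about 1 in 20. PEG10 A was 47.3 in 188 dpn replicate 2, against 117.8 to 162.9 in the other samples of that age. PEG3 A was 9.28 in 1 dpn replicate 2, 1 of the samples of low GAPDH ratio, against 85.5 to 158.2 in the others.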

How the results depend on the processing

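No paired analysis was made, since each array came from a different animal and the labels do not name the dam. The replicate numbers used here are not in the labels and only name samples. In the members' fits and ratio tests under other settings, 400 values of called results kept their call and 48 lost it, while leaving out 1 sample kept 390 and lost 35. Of results not called, 29 and 16 values passed the test under these settings. The 5 members called at 28 dpn against 1 dpn were 2 with the actin ratio as a covariate. The 5 called at 188 dpn against 28 dpn were 3 with quantile normalization, 2 with median centring and 3 with the Dap ratio, and 3 to 6 with 1 sample left out. The 8 called at 188 dpn against 1 dpn were 5 without the dimmer probe sets, with array weights, with the GAPDH, actin or Dap ratio and without the 3 samples of low GAPDH ratio, and 5 to 8 with 1 sample left out. The dimmer probe sets filter tests fewer members, and for the rest the cause was not tested.

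Among all probe sets, the actin ratio as a covariate gave 204 calls in place of 4121 at 28 dpn against 1 dpn, 1667 in place of 5658 at 28 dpn against 94 dpc, 5365 in place of 8814 at 188 dpn against 94 dpc and 2737 in place of 7012 at 188 dpn against 1 dpn. The actin ratio differs between these stages. Fitting only the stages compared gave 2453 at 28 dpn against 1 dpn, from fewer samples, and the Dap ratio gave 1574 in place of 3315 at 188 dpn against 28 dpn.

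All reversals were of results that were not called, and their cause was not tested. PEG10 B at 188 dpn against 1 dpn was -0.82, -0.52 and -0.39 with the GAPDH, actin and Dap ratios, -0.79 without the 3 samples and -0.15, -0.15 and -0.08 without 1 dpn replicate 2, 1 dpn replicate 4 and 188 dpn replicate 3, within a range of -0.15 to 0.38 over the samples left out in turn. With the Dap ratio, PEG10 B was -0.30 and PEG3 B 0.28 at 188 dpn against 28 dpn. With median centring, PEG10 C was 0.03 at 188 dpn against 94 dpc and PEG3 B 0.03 at 1 dpn against 94 dpc. PLAGL1 C at 1 dpn against 94 dpc was -0.18 with the GAPDH ratio, -0.15 without the 3 samples and -0.24 without 94 dpc replicate 4, within -0.24 to 0.42 over the samples left out in turn. With the actin ratio, PLAGL1 C was 0.20 at 28 dpn against 94 dpc and PEG3 B 0.11 at 28 dpn against 1 dpn. With 1 added to signals, the PEG10 A to PEG3 A ratio changed by 0.26 at 1 dpn against 94 dpc and by 0.24 at 188 dpn against 28 dpn, and the PEG3 A to MEG3 A ratio by -0.36 at 188 dpn against 28 dpn. With 64 added, the PEG10 A to MEG3 A ratio changed by 0.02 at 188 dpn against 28 dpn. Without the 3 samples, the PEG10 A to MEG3 A ratio changed by -0.85 and the PEG3 A to MEG3 A ratio by -0.40 at 1 dpn against 94 dpc, and the PLAGL1 A to MEG3 A ratio by 0.09 at 28 dpn against 1 dpn. IGF2R at 1 dpn against 94 dpc was -0.01 without the 3 samples.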
